A study of Mus musculus with 6 samples.

Results

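The genes described here encode the vacuolar proton pump (V-ATPase) and the Ragulator and Rag complexes of the lysosome surface. They were chosen by name: every protein-coding gene of the deposited table whose symbol begins with Atp6v, Atp6ap, Lamtor or Rrag. This rule found 34 genes among 21633 protein-coding genes and 56884 genes in all. It uses no measured value, though it was chosen with earlier results of these data known. Transcripts were measured by RNA sequencing in 6 libraries of mouse neutrophils, sorted from bone marrow as mature cells by the surface proteins CD101 and Ly6G and then cultured outside the animal. In 3 libraries the culture held DKK1 (Dickkopf-1, a secreted protein that blocks Wnt co-receptors), and the other 3, cultured without it, are called control. The mouse strain and age, the DKK1 dose and the length of culture were not given in the sources used here. Nothing in the labels says whether the 3 libraries of a group stem from different mice or cultures. The p-values therefore measure only the spread between libraries, possibly a technical one.

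The V-ATPase pumps protons into lysosomes, endosomes and secretory granules. Its V1 sector faces the cytosol and hydrolyses ATP, and its V0 sector sits in the membrane and carries the protons across. The sectors come apart and rejoin as the pump is turned off and on. Several subunits have paralogs that are used in particular cell types, such as the forms that osteoclasts use to acidify the bone surface. Ragulator (Lamtor1 to Lamtor5) anchors the Rag GTPases to the lysosome, where the Rag dimer recruits the growth kinase complex mTORC1 when amino acids are plentiful. Ragulator also contacts the V-ATPase, so the genes belong to one lysosomal nutrient-sensing unit. Phagocytes rely on the pump to acidify phagosomes.

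Values are the authors' normalized counts per gene and library. Read totals recovered from these values ran from 5188116 to 9851961 per library, and DKK1 library 2 was the shallowest. The normalized counts of a control library summed to 9729307 ± 39771 and those of a DKK1 library to 6738824 ± 336773 (SD, n = 3 per group). The deposited scale therefore differs from one with equal library totals. Setting the totals equal moved the median log2 change of all genes by 0.51. The labelled cell type was checked against 14 listed transcripts of mature neutrophils. Of these, 13 were lower with DKK1, and their summed normalized count lay between 706203 and 731473 in the control libraries and between 3452 and 3952 in the DKK1 libraries. Cd101, a sorting marker, had a mean of 5098 in control and 3.53 in DKK1, and Ly6g, the other, 1338 and 5.96. The transcripts that define the sorted cells were thus nearly absent from the DKK1 libraries, and the part of this in the results was not tested. In bulk samples, fewer cells of a type and less RNA per cell cannot be told apart.

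Most members rose with DKK1. Of the 34 members, 26 were high enough to be tested (values of 1 or more in at least 3 of the 6 libraries). Of these, 21 were higher with DKK1, 4 were lower and 1 did not pass (limma with Benjamini-Hochberg adjustment over all 16265 tested genes, threshold 0.05). Over all tested genes 35.1% were called higher and 36.1% lower. The median log2 change of the tested members was 1.20, and that of all tested genes was -0.03. Of the 26, 24 passed the filter within each group by itself, and of those 20 were higher and 3 lower. The share of all genes called under that rule is not given here. Atp6v0d2, with 0 control reads, could enter only through the DKK1 libraries, so it had to differ. Atp6v1g2 passed the filter within control but not within DKK1, so the filter favoured a difference in it without forcing one. Under a stricter filter of 10 in 3 libraries 21 members were again higher and 4 lower, against 42.1% and 41.1% of all genes. With libraries set to equal totals 22 members were higher and 3 lower, against 44.8% and 28.9% of all genes. All genes called then divided into 60.8% higher, against 49.3% on the deposited scale.

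The groups did not overlap for 25 of the 26 tested members. Every DKK1 library stood above every control library for 21 (36.5% of all tested genes did so) and below for 4 (37.4% of all tested genes). Of the 21 that rose, 15 rose by more than 1 on the log2 scale and 4 by more than 3. The shares of all genes past these sizes are not given here. DKK1 library 2 was the highest DKK1 library for 15 of the 21. Without that library 25 members could be tested, of which 20 were higher and 4 lower, against 33.7% and 38.1% of all genes.

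**Figure D1:**
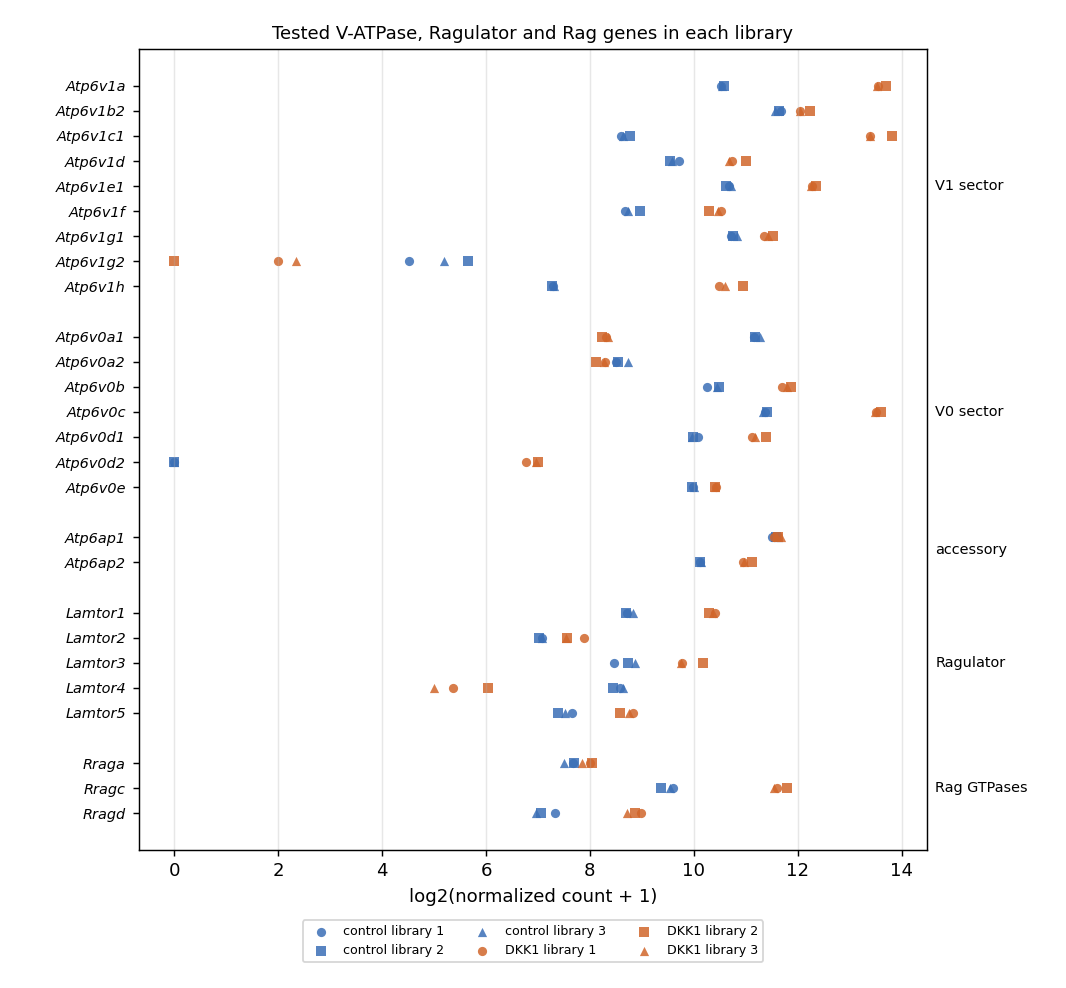
Level of each tested member in each library, on the horizontal axis as log2(normalized count + 1), with genes grouped by role on the vertical axis. Blue points are control libraries and orange points DKK1 libraries, and the symbol gives the library number; the groups are apart for 25 of 26 genes and overlap for Atp6ap1.

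Promoter sequences bear on these genes because many lysosomal genes carry a palindromic E-box, CACGTG, that MiT/TFE transcription factors bind, and in the CLEAR element of these factors T precedes it and A follows. RefSeq promoter windows on GRCm38.p6 (250 bases before the transcript start and 50 after) were at hand for 26 of the 34 members. The E-box, which reads the same on both strands, was in a window of 8 of the 26 (30.8%) and of 8.09% of all 27025 genes with a window. The form flanked by T and A was in 3 of the 26 (11.5%) and in 1.12% of all genes, and every such match is also a match of the E-box. Of the 15 members with a window that rose, 6 held the E-box: Atp6v1a, Atp6v0b, Atp6v0d1, Atp6v0e, Lamtor1 and Rragc. Of the 3 with a window that fell, Lamtor4 held it, at 2 places. Rragb, at 1 read, held it at 3 places. A match is a description of letters and shows no binding.

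The following stretches show the 3 flanked matches, then Rragc, the tested Rag gene with a match, and Lamtor4, the member that fell and carries it. Each runs 5′ to 3′ on the gene's strand, with the E-box in capitals.
Atp6v1a, chr16:44139320-44139439, minus strand, 180 to 61 bases before the start: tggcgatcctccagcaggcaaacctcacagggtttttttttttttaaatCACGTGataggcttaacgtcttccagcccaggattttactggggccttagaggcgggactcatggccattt
Atp6v0d1, chr8:105566054-105566173, minus strand, ending 11 bases after the start: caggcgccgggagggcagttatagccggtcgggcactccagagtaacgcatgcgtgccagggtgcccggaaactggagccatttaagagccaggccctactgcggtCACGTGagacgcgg
Atp6v0e, chr17:26676292-26676411, plus strand, ending 16 bases after the start: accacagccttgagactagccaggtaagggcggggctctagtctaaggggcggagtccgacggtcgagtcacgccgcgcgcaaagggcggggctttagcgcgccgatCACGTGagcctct
Rragc, chr4:123917268-123917387, plus strand, 165 to 46 bases before the start: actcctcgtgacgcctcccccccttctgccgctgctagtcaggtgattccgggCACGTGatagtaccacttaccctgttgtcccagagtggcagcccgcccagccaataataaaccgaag
Lamtor4, chr5:138255312-138255431, plus strand, 170 to 51 bases before the start: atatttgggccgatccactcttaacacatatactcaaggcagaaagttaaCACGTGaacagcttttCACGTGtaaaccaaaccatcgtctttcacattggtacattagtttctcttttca
The E-box began 131 bases before the start in Atp6v1a, 3 before it in Atp6v0d1 and 4 after it in Atp6v0e. In Lamtor4 the 2 copies began 120 and 104 bases before the start.

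Of the 13 genes of the V1 sector, 9 were tested, of which 8 rose and 1 fell. Atp6v1c1, which encodes subunit C, a stalk subunit that helps hold V1 to V0, stood at 387, 439 and 398 normalized counts in control libraries 1 to 3 and at 10685, 14344 and 10769.7 in DKK1 libraries 1 to 3. The lowest DKK1 library was thus far above the highest control library. The mean was 29.3-fold higher (log2 change of 4.86, SE 0.11, limma adjusted p = 9.13e-10), where a fold is the ratio of the group means. Atp6v1c1 lies at chromosome 15, 38661933 to 38692446, plus strand (identifier ENSMUSG00000022295.9; positions are those of GENCODE M21 on GRCm38, the assembly of mm10). Its paralog Atp6v1c2 had 0 reads in all 6 libraries.

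Atp6v1h encodes subunit H, a regulatory subunit that restrains ATP use by free V1. Its normalized counts were 155, 154 and 158 in control and 1427, 1984 and 1562 in DKK1. The control libraries were nearly equal and the DKK1 libraries spread more widely above them, with library 2 highest. The mean rose 10.7-fold (log2 change of 3.39, SE 0.12, limma adjusted p = 1.14e-08). Atp6v1a encodes the catalytic subunit A, which binds and hydrolyses ATP. It stood at 1470.4, 1526 and 1483 in control and at 11978, 13266 and 11888 in DKK1, 8.29-fold higher (log2 change of 3.05, SE 0.06, limma adjusted p = 3.08e-10).

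The subunit that pairs with A in the catalytic ring had a smaller fold change. Atp6v1b2, the B subunit found in most tissues, had normalized counts of 3276, 3175 and 3013 in control and 4207, 4852 and 4228 in DKK1. The groups did not overlap, and the mean was 1.40-fold higher (log2 change of 0.49, SE 0.07, limma adjusted p = 0.000184). Its kidney and epididymis paralog Atp6v1b1 had 0 reads in every library.

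The other V1 subunits rose by intermediate amounts. Atp6v1f (subunit F, part of the central rotor) had normalized counts of 409, 500.5 and 423 in control and 1465, 1249 and 1416 in DKK1, 3.10-fold higher (log2 change of 1.63, SE 0.10, limma adjusted p = 4.91e-07). Atp6v1e1 (subunit E of the peripheral stalks) had 1645, 1583 and 1688 in control and 4963, 5243 and 4924 in DKK1, 3.08-fold higher (log2 change of 1.62, SE 0.06, limma adjusted p = 9.74e-09). In both genes the libraries of a group lay close together relative to the gap between groups. Atp6v1d (subunit D, the rotor shaft) had normalized counts of 841, 746 and 769 in control and 1704, 2055 and 1629 in DKK1, 2.29-fold higher (log2 change of 1.19, SE 0.10, limma adjusted p = 3.78e-06). Atp6v1g1 (subunit G, which pairs with E) had 1678, 1728 and 1827 in control and 2603, 2942 and 2772 in DKK1, 1.59-fold higher (log2 change of 0.67, SE 0.07, limma adjusted p = 1.54e-05). The neuronal G paralog Atp6v1g2 was the V1 gene that fell. Its normalized counts were low throughout, 22.0, 49.2 and 35.5 in control and 2.98, 0 and 4.08 in DKK1 (log2 change of -3.67), from 100 reads in the control libraries together and 9 in the DKK1 libraries. The size of this change followed the pseudocount, with -4.96 at a pseudocount of 0.1 and -1.85 at 10. It made up 1.48 ± 0.556% of G transcripts per kilobase in control and 0.0648 ± 0.0574% in DKK1 (SD, n = 3 per group).

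Of the 9 genes of the V0 sector, 7 were tested, of which 5 rose and 2 fell. The 2 that fell both encode subunit a, the large membrane subunit that provides the proton path and directs the pump to a compartment. Atp6v0a1 stood at 2298, 2309 and 2463 normalized counts in control and at 318, 299 and 327 in DKK1. Both groups were tight and far apart, and the mean was 7.49-fold lower (log2 change of -2.90, SE 0.07, limma adjusted p = 1.08e-09; chromosome 11, 101009452 to 101063719, plus strand). Atp6v0a2, a form found on the Golgi and endosomes, had 362, 371 and 426 in control and 312, 277 and 309 in DKK1, 1.29-fold lower (log2 change of -0.36, SE 0.10, limma adjusted p = 0.00981). This small fall depended on the scale and on a single library. Set to equal totals its log2 change was 0.17 with an adjusted p = 0.230, and without control library 3 it was -0.29 with an adjusted p = 0.0518 (limma). The kidney form Atp6v0a4 had 0 reads in every library.

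The remaining form of subunit a is encoded by Tcirg1, a gene that the name rule does not take. It is the form of the osteoclast plasma membrane and of phagocyte lysosomes. Tcirg1 stood at 769, 799.8 and 913 normalized counts in control and rose to 2839.7, 2846 and 2868 in DKK1, 3.45-fold higher (log2 change of 1.79, SE 0.07, limma adjusted p = 3.67e-08). Per kilobase of transcript, Atp6v0a1 made up 63.1 ± 1.20% of subunit a transcripts in control and 7.32 ± 0.259% in DKK1 (SD, n = 3 per group). The share of Tcirg1 went from 29.1 ± 0.977% to 87.5 ± 0.546%, and that of Atp6v0a2 from 7.74 ± 0.230% to 5.22 ± 0.297%. Atp6v0a1 was thus the leading form in each control library and Tcirg1 in each DKK1 library. Summed over the forms, the normalized count of subunit a per kilobase was 894, 909 and 994 in control and 1072, 1063 and 1083 in DKK1. These shares do not depend on how libraries are scaled to each other, whereas the sum does.

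**Figure D2:**
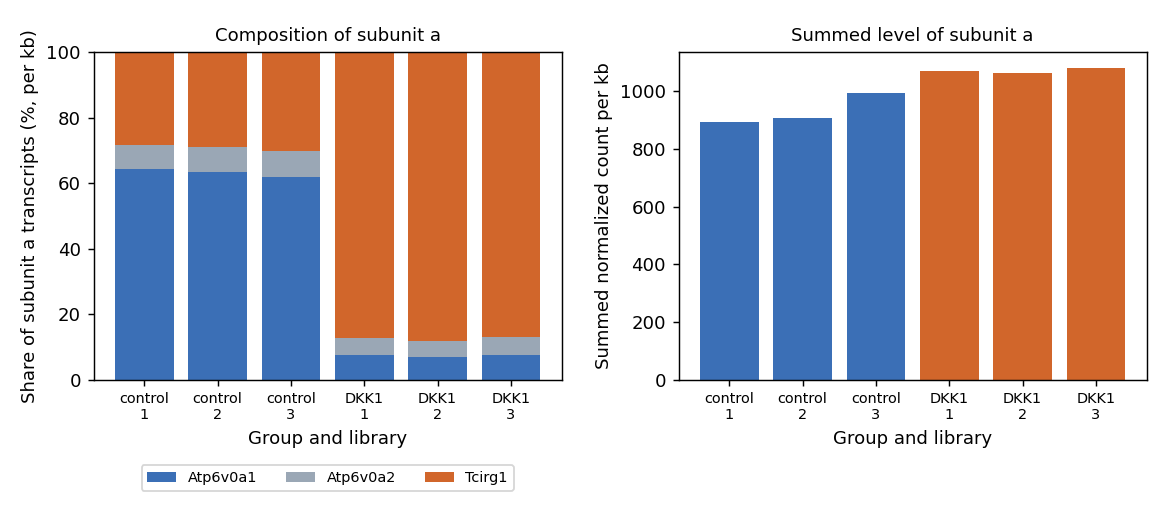
Left, share of each paralog among subunit a transcripts (percent, normalized counts per kilobase of transcript) in each library; right, their summed normalized count per kilobase on the deposited scale. Each bar is a single library: Atp6v0a1 leads in the 3 control libraries and Tcirg1 in the 3 DKK1 libraries, while the summed level runs from 894 to 1083.

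The proton-carrying ring of V0 rose. Atp6v0c, which encodes the ring's main proteolipid, had normalized counts of 2658, 2711 and 2577 in control and 11623, 12502 and 11437 in DKK1, 4.48-fold higher (log2 change of 2.16, SE 0.05, limma adjusted p = 1.18e-09). Its pseudogene Atp6v0c-ps2 also rose, from 3 reads over the control libraries to 36 over the DKK1 libraries, and reads of such copies may be split or shared by the counting. Atp6v0c itself had 38702 reads in DKK1. How many of these the copies share cannot be told, since the counting method was not given. Atp6v0b, a further ring subunit, had 1222, 1427 and 1390.1 in control and 3334, 3761 and 3569.8 in DKK1, 2.64-fold higher (log2 change of 1.40, SE 0.08, limma adjusted p = 2.34e-07). Its exons overlap an antisense gene over 11.8% of their length, which had a mean of 5.87 in control and 12.4 in DKK1. Atp6v0e, which encodes a small membrane subunit, rose by the smallest amount among the V0 genes that rose: 1007, 1004 and 1029.5 in control against 1369, 1357 and 1355 in DKK1, 1.34-fold (log2 change of 0.42, SE 0.06, limma adjusted p = 0.000145).

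Subunit d couples the rotor of V1 to the ring. Its ubiquitous form Atp6v0d1 had normalized counts of 1082, 1018 and 999.99 in control and 2237, 2668 and 2303 in DKK1, 2.33-fold higher (log2 change of 1.21, SE 0.08, limma adjusted p = 8.09e-07). Atp6v0d2, the form known from osteoclasts, macrophages, lung and kidney, had 0 reads in each control library and normalized counts of 108, 128 and 123 in DKK1. Against a floor of 3 reads over the control libraries it was at least 112-fold higher. Atp6v0d2 lies at chromosome 4, 19876841 to 19922605, minus strand. Though it appeared with DKK1 alone, it made up only 3.10 ± 0.189% of subunit d transcripts per kilobase there (SD, n = 3).

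The accessory genes showed little or moderate change. Atp6ap1, an assembly factor of V0 that stays with the finished pump, had normalized counts of 2904, 3059 and 3154 in control and 2989, 3135 and 3269 in DKK1. The groups overlapped and it did not pass (log2 change of 0.04, SE 0.06, limma adjusted p = 0.539). With equal totals it was called higher, at a log2 change of 0.57. Atp6ap2, also known as the prorenin receptor, had 1117, 1105 and 1122 in control and 1981, 2216 and 1995 in DKK1, 1.85-fold higher (log2 change of 0.89, SE 0.07, limma adjusted p = 1.87e-06).

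**Figure D3:**
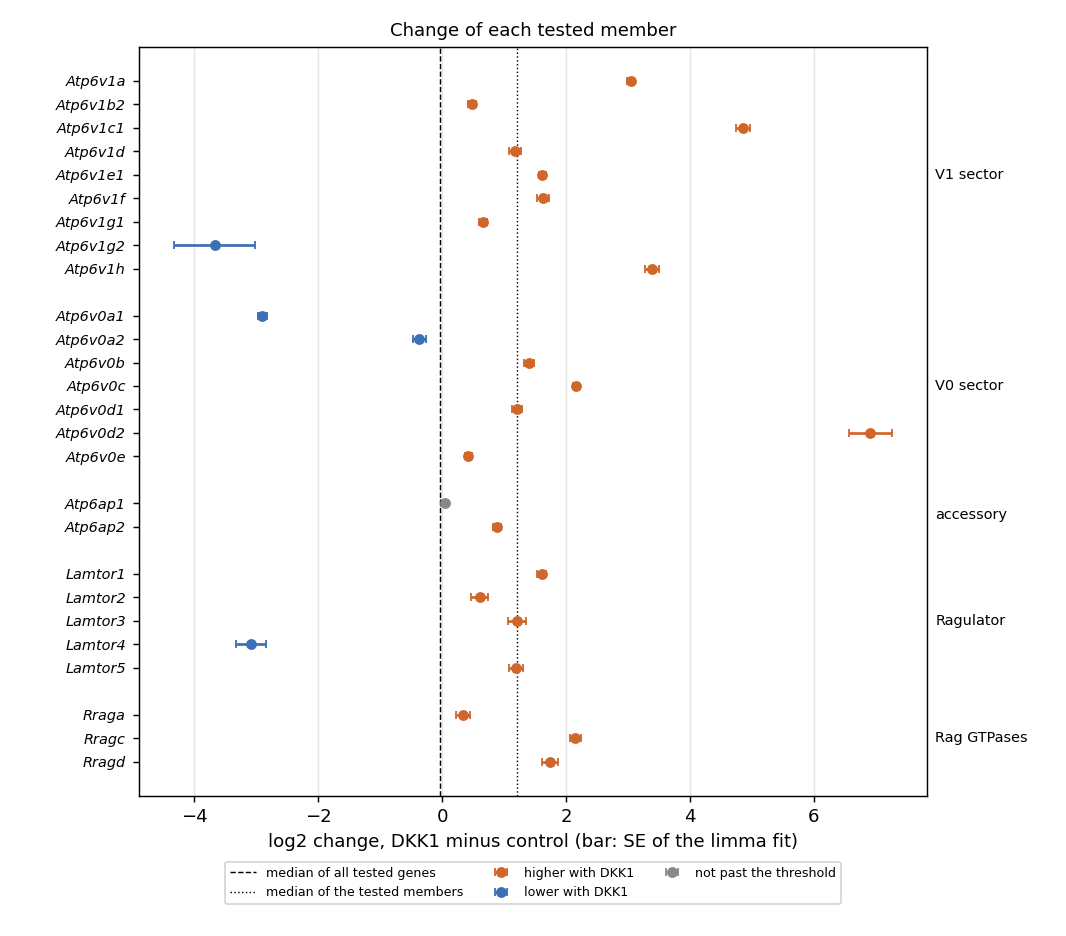
Log2 change of each tested member (DKK1 minus control, horizontal axis) with the SE of the limma fit as bars, grouped by role. The dashed line is the median of all tested genes (-0.03) and the dotted line that of the tested members (1.20); 21 genes are higher (orange), 4 lower (blue) and 1 not past the threshold (grey), and with equal totals Atp6v0a2 is on the other side of 0 and Atp6ap1 is called higher.

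Because the subunits rose by different amounts, their order by level changed. Levels were compared per kilobase of the principal transcript for 12 subunits, taking the main form where there are paralogs and leaving out subunit a. Atp6v0c was the highest in both groups, at 2239 ± 57.0 normalized counts per kilobase in control and 10020.1 ± 481 in DKK1 (SD, n = 3 per group). Atp6v1c1 went from rank 11 of 12 in control, at 197 ± 13.3, to rank 2 in DKK1, at 5762 ± 1008. Atp6v1a went from rank 9, at 353 ± 6.89, to rank 5, at 2923 ± 182. Atp6v1g1 went from rank 2, at 1537 ± 66.6, to rank 6, at 2443 ± 149. Atp6v1h was the lowest in control, at 75.9 ± 0.899. In DKK1 the lowest means were those of Atp6v0e, at 484 ± 2.67, and Atp6v1d, at 489.8 ± 62.0, which did not differ beyond their spread. The ratio of the highest to the lowest of the 12 within a library was 29.5 ± 1.09 in control and 21.6 ± 0.401 in DKK1. Several neighbours in the DKK1 order lay within each other's spread, such as Atp6v1b2 at 1568 ± 129.7 and Atp6v0d1 at 1475 ± 142. The order depends on the length correction. Without it Atp6v1b2, at 3154 ± 133, stood above Atp6v0c, at 2649 ± 67.4, in control. In DKK1, Atp6v1a at 12377 ± 771, Atp6v1c1 at 11933 ± 2088 and Atp6v0c at 11854 ± 569 then lay within each other's spread.

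**Figure D4:**
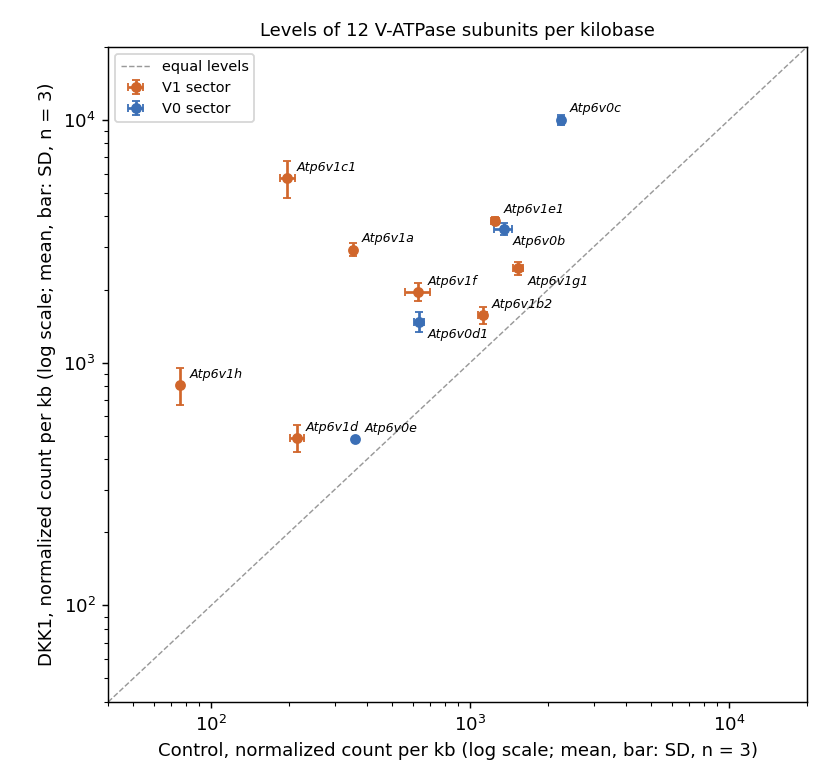
Mean normalized count per kilobase of 12 V-ATPase subunits in control (horizontal) and DKK1 (vertical), both on log scales, with SD bars (n = 3). All 12 lie above the dashed line of equal levels on the deposited scale; Atp6v1c1 lies farthest from it and Atp6v0e nearest.

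All 5 Ragulator genes were tested; 4 rose and 1 fell. Lamtor1, the lipid-anchored subunit that wraps the others and ties them to the membrane, had normalized counts of 419, 414 and 452 in control and 1351, 1258 and 1327 in DKK1, 3.06-fold higher (log2 change of 1.61, SE 0.07, limma adjusted p = 5.77e-08). Lamtor3, which forms a pair with Lamtor2 and also scaffolds MAP kinase signalling, had 350.3, 427 and 464 in control and 876, 1154 and 857 in DKK1, 2.33-fold higher (log2 change of 1.21, SE 0.14, limma adjusted p = 4.44e-05). In both genes the groups were well apart. Lamtor1 exons overlap the antisense gene Lrrc51 over 18.7% of their length, and Lrrc51 stood at a mean of 7.79 in control and 19.2 in DKK1. Lamtor2 rose less, from 134, 128 and 134 in control to 237, 187 and 185 in DKK1, with DKK1 library 1 above the other DKK1 libraries (1.54-fold, log2 change of 0.61, SE 0.13, limma adjusted p = 0.00286). Lamtor5, which pairs with Lamtor4, had 199.9, 166 and 183 in control and 454, 382 and 428 in DKK1, 2.30-fold higher (log2 change of 1.20, SE 0.11, limma adjusted p = 1.01e-05).

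Lamtor4 moved the other way from the remaining Ragulator genes, its partner Lamtor5 included. Its normalized counts were 381, 347 and 395 in control and 40.2, 64.6 and 31.0 in DKK1. The lowest control library was above the highest DKK1 library by a wide margin, and the mean was 8.27-fold lower (log2 change of -3.08, SE 0.24, limma adjusted p = 2.69e-06). Over all alternatives its log2 change lay between -3.37 and -2.56. Lamtor4 lies at chromosome 5, 138255482 to 138259398, plus strand (identifier ENSMUSG00000050552.9), and its exons overlap no other gene of GENCODE M21. Per kilobase, Lamtor4 stood at 427 ± 27.9 in control, above Lamtor1 at 383 ± 18.3 and Lamtor5 at 208 ± 19.0. In DKK1 it stood at 51.6 ± 19.8, below all 4 other Ragulator genes, of which Lamtor2 was the lowest at 304 ± 44.0. Without a length correction Lamtor4 was below Lamtor1 in control too, at 375 ± 24.5 against 429 ± 20.5.

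The Rag GTPases act as dimers of Rag A or B with Rag C or D. Rragc had normalized counts of 779, 658 and 741 in control and 3115, 3576 and 3001 in DKK1, 4.45-fold higher (log2 change of 2.15, SE 0.09, limma adjusted p = 3.63e-08; chromosome 4, 123917446 to 123936997, plus strand). Rragd, a known target gene of the MiT/TFE transcription factors, had 160.3, 132 and 123 in control and 505, 466 and 420.5 in DKK1, 3.35-fold higher (log2 change of 1.74, SE 0.13, limma adjusted p = 1.88e-06). Both genes of the C and D arm thus rose with no overlap between groups. Rragd made up 8.99 ± 0.927% of the transcripts of this arm per kilobase in control and 6.94 ± 0.733% in DKK1 (SD, n = 3 per group).

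In the other arm the change was small. Rraga had normalized counts of 203, 207 and 181 in control and 256, 261 and 229 in DKK1, 1.26-fold higher (log2 change of 0.33, SE 0.11, limma adjusted p = 0.0224). The call was lost without control library 3 (adjusted p = 0.0951), without DKK1 library 1 (adjusted p = 0.0639), with DESeq2 on recovered reads (adjusted p = 0.131) and with median-of-ratios scaling (limma adjusted p = 0.0501). Rragb had 1 read in all 6 libraries. Per kilobase, Rraga stood at 122 ± 8.50 in control against 279.9 ± 23.8 for Rragc, and at 154 ± 10.8 against 1246 ± 117 in DKK1.

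The 8 members that could not be tested are mostly paralogs known from particular tissues. Of these, Atp6v1b1, Atp6v1c2, Atp6v0a4 and Atp6ap1l had 0 reads in all libraries. Atp6v1g3 and Rragb had 1 control read each. Atp6v0e2 had 2 reads and Atp6v1e2 had 5, all in DKK1 libraries. At these depths a change in them was not detectable. Summed over a group, the floor of 3 reads equals a mean value of 1.07 in control and of 0.979 in DKK1. Such floors cover counting error alone, and molecular identifiers are not mentioned in the labels.

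Together the members took a larger part of the library with DKK1. Their summed normalized count was 25159, 25385 and 25629 in control and 70145, 79624 and 70359.7 in DKK1. As a share of the library's summed normalized count this was 0.261 ± 0.00337% in control and 1.09 ± 0.0254% in DKK1 (SD, n = 3 per group). The V1 sector went from 0.101 ± 0.000588% to 0.613 ± 0.0271%, the V0 sector from 0.0903 ± 0.00177% to 0.295 ± 0.000759%, and the Rag genes from 0.0109 ± 0.000713% to 0.0585 ± 0.00255%. Each total includes the 14 neutrophil transcripts given above.

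Neighbours of the members in the pathway were read from the same fit, in which 35.1% of all tested genes were higher and 36.1% lower. Of 13 genes for V-ATPase parts outside the name rule and for its assembly, 12 were tested, of which 8 were higher and 4 lower (median log2 change 1.38). Besides Tcirg1, the regulator Tbc1d24 rose from 18.9 ± 5.85 to 818 ± 27.4 (SD, n = 3 per group). Dmxl2, a part of the complex that rejoins V1 to V0, fell from 8973 ± 115 to 4218 ± 374. Oxr1, a gene of the TLDc family that acts on the pump's assembly, fell from 610.4 ± 40.7 to 184 ± 10.4. Other assembly genes of this list, named after their values were seen, moved in both directions. Dmxl1 rose 2.01-fold and Wdr7 1.61-fold, while Rogdi fell from 420 ± 17.3 to 5.14 ± 3.28. Ion channels and chloride exchangers of the lysosome gave 8 higher and 2 lower of 11 tested (median 1.88). Clcn7, the chloride exchanger that balances the charge carried by the pump, rose 17.8-fold from 286 ± 19.7 to 5086 ± 614. The lysosomal calcium channel gene Mcoln1 rose from 299 ± 5.18 to 2223 ± 187 and Clcn6 from 84.3 ± 2.39 to 454 ± 11.4, whereas the channel gene Tpcn2 fell from 639 ± 39.1 to 99.3 ± 9.24.

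The list for amino acid sensing upstream of the Rag GTPases holds sensor genes and subunits of the complexes that relay their signal. On the deposited scale 10 of 22 were higher and 7 lower, against 35.1% and 36.1% of all tested genes. No Sesn or Castor gene of this list was among those higher. With equal totals 4 were lower, and the count of those higher is not given here. The median of this list was 0.56, or 1.09 with equal totals. Fnip2, a partner of folliculin in the complex that acts on Rag C and D, rose 9.48-fold from 2633 ± 59.4 to 24960.1 ± 1861. The GATOR2 genes Seh1l, Wdr59 and Sec13 rose 5.76-fold, 27.3-fold and 2.73-fold, Wdr59 from a low control mean of 9.86 ± 2.85. Others of the list, named after their values were seen, did not rise. Wdr24, also of GATOR2, did not pass (log2 change of -0.40, SE 0.17, limma adjusted p = 0.0563). The leucine sensor gene Sesn2 fell from 1349.7 ± 44.5 to 151 ± 117. Its relative Sesn3, which passed the filter within control but not within DKK1, stood at 153 ± 22.7 and 6.84 ± 6.50. For mTORC1 and its regulators 7 of 14 were higher and 3 lower, with a median of 0.17, or 0.70 with equal totals. The kinase gene Mtor rose slightly, from 278 ± 14.7 to 375 ± 23.0 (log2 change of 0.43, SE 0.09, limma adjusted p = 0.00277), and Rptor, its scaffold, rose 6.74-fold. Tsc1, of the complex that restrains mTORC1, rose 4.72-fold. The mTORC1 substrates Eif4ebp2 and Ulk1 fell 7.99-fold and 3.91-fold. Of 12 genes for lysosome positioning, 5 were higher (41.7%) and 4 lower (33.3%), near the shares of all tested genes. The median of this list was -0.12, or 0.38 with equal totals. The 4 of smallest p in that list all rose: Plekhm2 10.2-fold, Plekhm1 3.45-fold, Arl8b 5.23-fold and Snapin 7.53-fold. The 4 that fell were named after their values were seen, and all are subunits of BORC, the complex that couples lysosomes to transport. They were Borcs6 (7.38-fold), Borcs8 (3.96-fold), Bloc1s2 (3.37-fold) and Bloc1s1 (2.01-fold). BORC did not move as a whole, since Snapin, which rose, is also a subunit. Its subunits Kxd1, Borcs5 and Borcs7 did not pass (log2 changes of 0.30, -0.53 and -0.57). Apart from Wdr24, Kxd1, Borcs5 and Borcs7, the genes named with a change from these lists passed the threshold (limma), with no overlap between groups.

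The MiT/TFE factor genes, whose products bind the E-box described above, moved in both directions. Mitf had normalized counts of 321, 303 and 302 in control and 710.3, 786 and 737 in DKK1 (log2 change of 1.27, SE 0.08, limma adjusted p = 6.03e-07). Tfec, a myeloid member of the family, went from 3.29, 4.47 and 0 to 364, 291 and 312 (log2 change of 6.81). Tfec passed the filter within DKK1 but not within control, so the filter favoured a difference in it without forcing one. Both were higher in every DKK1 library than in any control library. Tfeb fell from 640.2, 688 and 613 to 385, 548 and 378 (log2 change of -0.59, SE 0.14, limma adjusted p = 0.00467), and Tfe3 fell from 995, 963 and 926 to 662, 738 and 598 (log2 change of -0.53, SE 0.09, limma adjusted p = 0.000495). With equal totals neither fall passed, with limma adjusted p = 0.692 for Tfeb and 0.973 for Tfe3. Among the 5 genes whose promoters are printed above the fold change with DKK1 ran from 8.29-fold higher in Atp6v1a and 4.45-fold higher in Rragc to 1.34-fold higher in Atp6v0e and 8.27-fold lower in Lamtor4. Lamtor4 was printed because it fell, so the presence of both directions among these 5 follows from the choice.

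**Figure D5:**
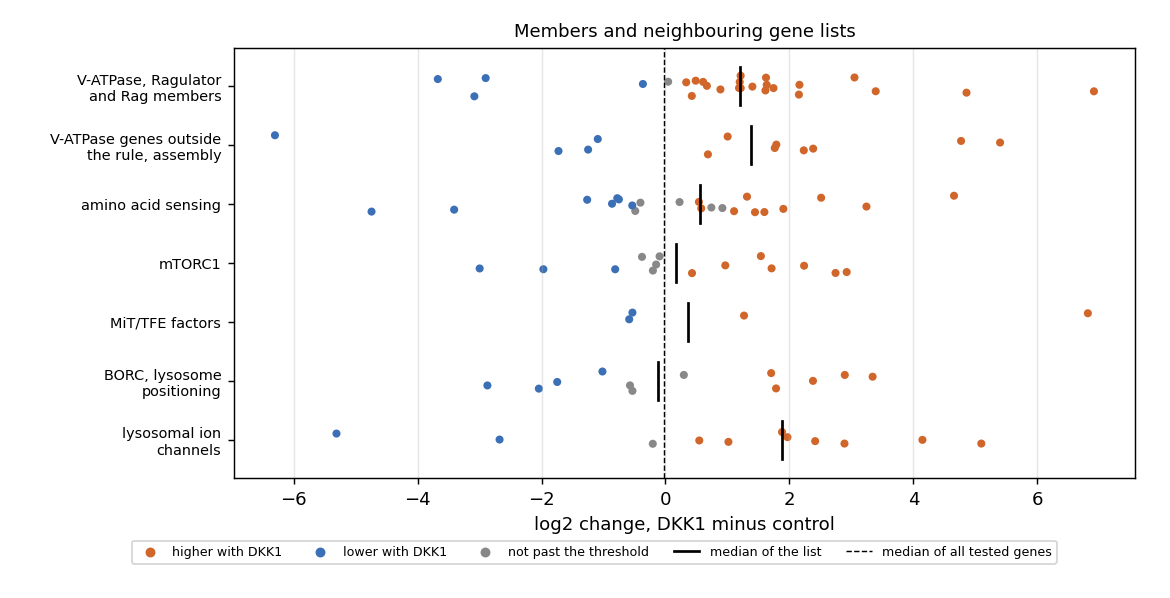
Log2 change (DKK1 minus control, horizontal axis) of the tested members and of the tested genes of 6 neighbouring lists; each point is a gene, coloured by its call, short black bars are list medians and the dashed line is the median of all tested genes (-0.03). Medians run from -0.12 for lysosome positioning (0.38 with equal totals) to 1.88 for lysosomal ion channels, with the members at 1.20; vertical scatter within a row has no meaning.

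Markers of other cell types moved in both directions, and their part in the results was not tested. Of 9 osteoclast markers 5 were tested, of which 4 rose and 1 fell, and their summed normalized count lay between 2632 and 2797 in control and between 5521 and 6186 in DKK1. Within that list Acp5 went from 11.7 to 816, Ctsk from 10.3 to 921, Itgb3 from 431 to 2610 and Mmp14 from 1.10 to 1058. Mmp14 passed the filter within DKK1 but not within control. Nfatc1, which made up most of the control sum, fell from 2269.9 to 341. The fusion genes Dcstamp and Ocstamp had 0 reads in every library, and Calcr and Oscar had 1 read each in all. Of 14 macrophage markers 3 rose and 8 fell, with a summed level between 5158 and 5403 in control and between 15364 and 15472 in DKK1. Cd68 made up most of the higher sum, at 10121 ± 286, while C1qa, Cd163 and Vsig4 had 0 reads in DKK1. Of 10 markers of basophils, mast cells and eosinophils 6 rose and 1 fell. Their summed level lay between 334 and 366 in control and between 234 and 342 in DKK1. Siglecf, the gene that fell, made up most of the control sum, at 292 ± 8.65 against 1.20 ± 1.13 in DKK1. The sum therefore hides the rise of the other 6, of which Prss34 had the highest DKK1 mean, 70.6 ± 32.3 against 18.1 ± 9.51 in control. Of 7 B cell markers, summed between 1489 and 1608 in control and between 42.6 and 116 in DKK1, 6 fell, and of 7 tested erythroid markers, summed between 1637 and 1776 in control and between 300.5 and 1496 in DKK1, 5 fell. Ighm made up most of the B cell sums, at 1458 ± 70.8 in control and 49.3 ± 16.1 in DKK1. Within the erythroid list DKK1 library 2 had the highest sum of the DKK1 libraries.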

How the data were processed

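RNA sequencing of 3 control and 3 DKK1 libraries was deposited as 1 table of normalized counts, a signal per gene that is never negative, per the file headers. Reads were assigned to mm10, per the submitters' processing notes; aligner, counter, strandedness, annotation and normalization were not given in the sources used here. A further 3 columns of values match no sample and were not used. Every value was a whole multiple of the worth of 1 read (100% within 0.001 reads), so reads were recovered for the alternatives.

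Groups came from sample titles. The test was limma 3.58.1 (R 4.3.3; trend and robust) on log2(value + 1), for genes with a value of at least 1 in at least 3 of 6 libraries, Benjamini-Hochberg adjusted, two-sided, threshold 0.05; a pseudocount of 1 understates changes of low genes. Alternatives included edgeR 4.0.16 and DESeq2 1.42.0 on recovered reads. The script was tested on simulated data. Positions and lengths (longest principal transcript) came from GENCODE M21, matched for all 34 members without the identifier's version. Antisense exon overlaps exist for 10 members, the largest shares among tested ones being Lamtor1 (18.7%) and Atp6v0b (11.8%); without stated strandedness such reads cannot be told apart. Library pairs within a group differed beyond counting noise (chi-square over genes divided by its degrees of freedom, 2.19 to 13.6). Pairs with DKK1 library 2 gave 13.6 and 12.5, and the other pairs 2.19 to 2.99. Members, lists and the rule for named genes were chosen with earlier results of these data known. Every member may be named. Values per library are given for called members with a mean of at least 100 in the higher group and for paralogs, and up to 4 genes of smallest p are named per neighbouring list, with Tcirg1, Tfeb, Tfe3, Mitf and Mtor always. Markers and genes singled out beyond this were chosen after their values were seen.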

Additional observations from a re-analysis of the deposited data

How the results depend on the processing

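The counts of members were little altered by the 16 alternatives: 19 to 22 were called higher and 3 or 4 lower. Of 413 values of single members under alternatives, 404 kept direction and side of the threshold. The exceptions concern Atp6ap1, Atp6v0a2 and Rraga. Atp6ap1 had a log2 change of -0.0173 with median-of-ratios scaling and of -0.0177 with DESeq2, and passed at 0.57 with equal totals. Atp6v0a2 had 0.17 with equal totals. The cause was not tested beyond the scaling itself. With equal totals the members' median log2 change was 1.73, against a median of 0.48 over all genes. The replicate numbers gave no sign of pairing (correlations of same-numbered deviations from -0.01 to 0.02), and with the replicate number as a block 21 members were higher and 4 lower, with 5630 genes higher and 5817 lower in all. Under the block each of the 26 tested members had the call it had without it. Leaving out each library in turn gave 19 to 21 members higher, 3 to 4 lower and a median of 1.09 to 1.24. Atp6v0d2 could not be fitted without a DKK1 library, since the filter asks for 3 libraries and control has no read. Without a length correction the share of Atp6v0a1 was 66.1% in control and 9.08% in DKK1, of Tcirg1 23.1% and 82.3%, of Rragd 16.0% and 12.6%, and of Atp6v0d2 4.75% in DKK1. Depth was lowest in DKK1 library 2, at 5188116 reads.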
